A study of Mus musculus with 6 samples.

Results

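The CD8 T cells described here were 168 single-cell transcriptomes, out of 8804 kept from 17560 cell barcodes in 6 libraries. A barcode was kept if 500 or more genes had UMIs (unique molecular identifiers, each 1 counted RNA molecule) and no more than 10% of its UMIs were mitochondrial. It was taken as a CD8 T cell if it had UMIs of at least 2 of the CD3 chain genes Cd3e, Cd3d and Cd3g and of Cd8a or Cd8b1, the chains of the CD8 co-receptor, and none of Cd4, the gamma-delta T cell receptor gene Trdc, the macrophage receptor gene Csf1r or the B cell gene Cd79a. The cells were thus chosen by their own UMIs of these genes, which are given as a description only. Of the 168 cells, 155 had all 3 CD3 genes, 130 had both CD8 chains, 17 had Cd8a alone and 21 had Cd8b1 alone. Members held a median of 7 Cd8a and Cd8b1 UMIs, and 14 cells entered on a single one. Just outside the rule, 258 cells had the CD3 genes but no UMI of Cd8a, Cd8b1 or Cd4, at a median of 6170 UMIs per cell against 7550 for members. Another 4 cells had a single CD3 gene, 9 had CD8 and Cd4 UMIs together and 7 had CD8 and Trdc UMIs.

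The study compared cells freed from the surface of the dorsal cortex (cortical surface-associated, CSA, 4 libraries) with cells of the tissue lining the inside of the skull (bone-associated, BA, 2 libraries). All samples were wild-type adult C57BL6 mice with no treatment, and live nucleated cells were sorted. The methods describe each library as tissue pooled from several mice of both sexes. UMIs of Y-linked genes, given below, were nearly absent from 4 of the 6 libraries. The animals were not perfused, so cells from blood and from tissue may both be present, and they cannot be told apart. The comparison asks whether CD8 T cells from the brain side and the skull side of the meninges differ.

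The libraries were unequal. CD8 T cells numbered 3 in CSA1, 5 in CSA2, 25 in CSA3, 68 in CSA4, 28 in BA1 and 39 in BA2, and their summed UMIs were 23410, 59721, 208657, 611667, 247949 and 320823 in the same order. CSA1 and CSA2 had fewer than 10 such cells and stood outside the gene tests, which set CSA3 and CSA4 against BA1 and BA2. CSA3 and CSA4 also stood apart from the other 4 libraries in 2 ways. Hemoglobin genes took 84.6% and 71.9% of all their UMIs and at most 0.520% elsewhere. UMIs of Y-linked genes were found in 31.8% of their kept barcodes and in 0.128% of those of the other 4 libraries, although the methods describe equal numbers of males and females in each library. Sex, hemoglobin load and preparation therefore cannot be told apart in the tests below. The level of hemoglobin in most CD8 T cells was low, with a median of 0.309% of UMIs in CSA3 and 0.233% in CSA4, and 98.8% and 98.9% of it sat in 10 cells. Another 3 cells, 2 of them in BA2, held at least 20 UMIs of fibroblast, mural or endothelial markers. The gene counts below were also obtained without cells of these kinds, 13 of them CD8 T cells. No CD8 T cell had UMIs of both Xist and a Y-linked gene, 35 barcode sequences occurred in more than 1 library, and 0 of the 168 members were among them.

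CD8 T cells recognise peptides on MHC class I molecules through a T cell receptor and the CD8 co-receptor. Naive cells circulate between blood and lymph nodes and carry the homing genes Ccr7 and S1pr1 and the transcription factors Lef1 and Tcf7. Many cells that have met antigen lose some or all of these and gain chemokines, granzymes and other cytotoxic genes. Some of them stay in tissues, the borders of the brain included.

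Genes of alpha-beta T cells outside the rule were found in most members. Trac, the constant region of the alpha chain, had UMIs in 92.9% of CD8 T cells, in 94.4% of CD4 T cells and in 0.536% of B cells. Trbc2, a constant region of the beta chain, was found in 98.8%, the receptor-linked kinase Lck in 88.7% and the T cell transcription factor Bcl11b in 74.4% of CD8 T cells, against 0.268%, 3.22% and 0% of B cells, whose median depth was 4453 UMIs. Markers of other lymphocytes were partly present. Of the 10 markers of natural killer (NK) cells, Klra8 and Klra4 were at 0 and 8 had UMIs, 383 in all and 85.4 to 343 in each 1000000 UMIs of a library's CD8 T cells, hemoglobin included, of which 148 were of Cd7, 90 of Fcer1g and 70 of Klra7. The NK receptor genes Ncr1 and Klrb1c had 9 UMIs in 2 cells and 14 in 6 cells. Of 12 B cell markers, Ms4a1 and Pax5 were among those at 0, Cd79a was at 0 by the rule, and 8 had UMIs, 147 in all and 64.5 to 184 on the same scale, with 99 UMIs of Ighm in 52 cells. Of 8 CD4 T cell markers, Foxp3 of regulatory T cells was at 0, Cd4 was at 0 by the rule, and 6 had UMIs, 247 in all and 24.0 to 342 on that scale, with 120 of Ikzf2, 65 of Ctla4 and 44 of Cd40lg. The 10 gamma-delta T cell markers had 104 UMIs, 43 of them of Il17a. Among markers of other cells, the 14 of macrophages and microglia had 498 UMIs, with 324 of Cst3 in 96 cells. They ranged from 113 in BA1 to 829 in BA2 on that scale, and Csf1r was at 0 by the rule. The part of these markers in the differences below was not tested.

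CD8 T cells made up 0.404% of kept barcodes in CSA1 (3 of 743, exact 95% binomial interval 0.0833 to 1.18), 0.399% in CSA2 (5 of 1252, 0.130 to 0.929), 2.27% in CSA3 (25 of 1103, 1.47 to 3.33), 3.03% in CSA4 (68 of 2241, 2.36 to 3.83), 2.91% in BA1 (28 of 963, 1.94 to 4.17) and 1.56% in BA2 (39 of 2502, 1.11 to 2.12). The cortical surface libraries thus held both the lowest and the highest shares, and the groups overlapped. The mean was 1.53% ± 1.34 (SD, n = 4) for CSA and 2.23% ± 0.954 (SD, n = 2) for BA, a difference smaller than the spread among CSA libraries (exact permutation test, two-sided, p = 0.667, where 4 against 2 libraries cannot go below 0.133). Among cells with at least 2 CD3 genes the share was 21.9% ± 9.09 (SD, n = 4) in CSA and 16.9% ± 8.55 (SD, n = 2) in BA (exact permutation p = 0.667), and this difference turned to the opposite direction when BA2 was left out. Intervals cover counting error only.

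**Figure D1:**
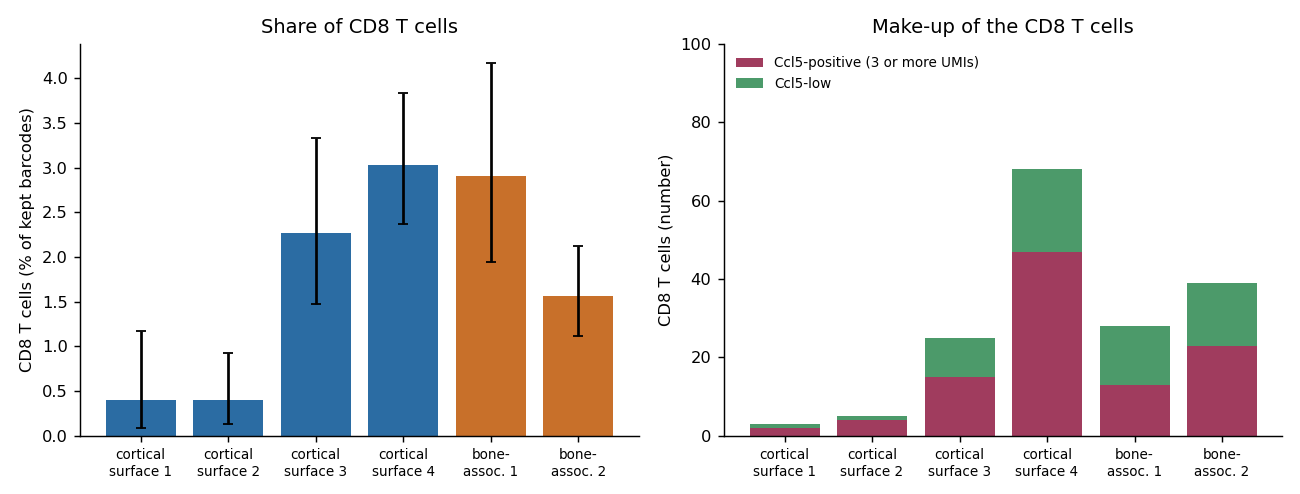
Left, share of CD8 T cells among kept barcodes in each library (bars, %) with exact 95% binomial intervals. Right, number of CD8 T cells per library by Ccl5, where CSA4 held 47 of its 68 cells in the Ccl5-positive group (at least 3 UMIs).

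Within the 168 cells, Ccl5 separated 2 kinds. Ccl5, a chemokine made by activated and memory CD8 T cells, was at 0 UMIs in 59 cells, at 1 or 2 in 5, from 3 to 9 in 9, and at 10 or more in 95, with a highest value of 266. Cells with at least 3 UMIs were called Ccl5-positive (104 cells, median 42 UMIs of Ccl5) and the other 64 Ccl5-low. The kinds were sequenced to a like depth, with medians of 7448 and 7702 UMIs per Ccl5-positive and Ccl5-low cell. Under the same definition of Ccl5-positive, free RNA was little visible: 0.109% ± 0.217 (SD, n = 4) of B cells in the CSA libraries and 0% in BA passed it, against 92.1% ± 6.06 of NK cells in CSA.

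**Figure D2:**
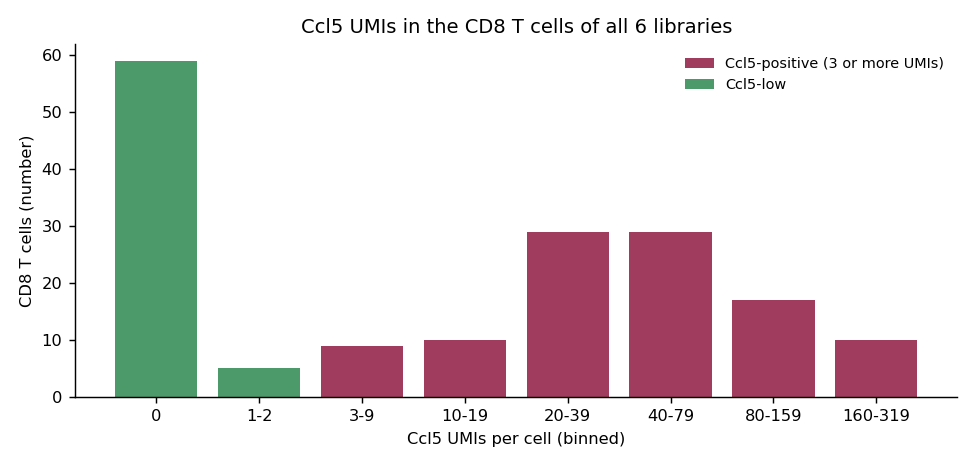
Number of CD8 T cells (all 6 libraries) by Ccl5 UMIs per cell, binned, coloured by Ccl5-positive (at least 3 UMIs) and Ccl5-low. Few cells lay between, with 5 cells at 1 or 2 and 9 cells from 3 to 9, beside 59 at 0 and 95 at 10 or more.

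Other genes followed the same division in each of CSA3, CSA4, BA1 and BA2, and they are given as a description, because the division was drawn from the same cells. Of 6190 genes detected in over 10% of either kind, 20.4% were higher in Ccl5-positive cells in all 4 libraries and 6.12% were lower in all 4. Of 16 naive and lymph node homing genes, 12 were lower in all 4 libraries and 0 were higher. Levels are given as CPM, which is UMIs scaled to 1000000 UMIs other than those of hemoglobin genes. Mean levels over the 4 libraries were 57.1 ± 52.0 (SD, n = 4) CPM in Ccl5-positive and 474 ± 261 in Ccl5-low cells for Ccr7, the receptor for lymph node chemokines. For Il7r, the interleukin 7 receptor that keeps resting T cells alive, they were 152 ± 32.4 (SD, n = 4) and 485 ± 114, and for Ccr9, a gut-homing receptor, 2.48 ± 4.95 (SD, n = 4) and 57.8 ± 21.0. Ccr9 is not on the naive list but on that of 13 chemokine receptor and adhesion genes, of which 3 were higher and 2 lower in all 4 libraries. UMIs of Ccr7 and Il7r were still found in 12 and 37 of the 98 Ccl5-positive cells.

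Of 23 cytotoxic and effector genes, 22 were higher in Ccl5-positive cells in all 4 libraries, Ccl5 itself included. Gzmk, a granzyme of memory CD8 T cells, had 79 UMIs in 38 of 98 Ccl5-positive cells and 0 in 62 Ccl5-low cells. Xcl1, a chemokine that draws dendritic cells, had 387 and 0. The perforin gene Prf1 had a smaller gap, at 49.7 ± 24.0 (SD, n = 4) and 22.6 ± 24.5 CPM. Of 16 memory and activation genes, 15 were higher in all 4 libraries, among them S100a6 (1464 ± 515 (SD, n = 4) against 43.1 ± 45.4), the galectin gene Lgals1 (994 ± 443 (SD, n = 4) against 60.9 ± 44.7) and Cxcr3, a receptor for interferon-induced chemokines (135 ± 67.0 (SD, n = 4) against 17.1 ± 11.5). Of 13 residence genes, 5 were higher in all 4 libraries, the collagen-binding integrin Itga1 among them, and 1 was lower in all 4. The lower one was Itgae, the CD103 integrin of epithelial resident cells, with 6 UMIs in Ccl5-positive and 11 in Ccl5-low cells. Itgae had UMIs in 12 of the 168 CD8 T cells and Zfp683 (Hobit) in 2.

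Ccl5-positive cells were 60.0% of CD8 T cells in CSA3 (15 of 25, exact 95% interval 38.7 to 78.9), 69.1% in CSA4 (47 of 68, 56.7 to 79.8), 46.4% in BA1 (13 of 28, 27.5 to 66.1) and 59.0% in BA2 (23 of 39, 42.1 to 74.4). CSA3 and BA2 were nearly equal, and although the groups did not overlap, the intervals of the libraries did. The value obtained, p = 0.333, is the smallest that 2 against 2 libraries allow (exact permutation test, two-sided), and with Ccl5-positive set at 1 or at 10 UMIs it was 0.667. The groups also overlapped when both Cd8a and Cd8b1 were required (BA2 at 73.1%) or at most 5% mitochondrial UMIs were allowed (BA2 at 75%), with p = 1.00 in each (exact permutation test). With CSA1 and CSA2 added the CSA mean was 68.9% ± 8.32 (SD, n = 4) against 52.7% ± 8.87 (SD, n = 2), at the smallest p that 4 against 2 allows, 0.133 (exact permutation test). Among CD4 T cells 33.7% ± 12.7 (SD, n = 4) were Ccl5-positive in CSA and 12.6% ± 1.85 (SD, n = 2) in BA (exact permutation p = 0.133). The CSA mean for CD4 T cells includes CSA2, where 2 of 4 cells were Ccl5-positive. CSA3 and CSA4 were at 36% and 28.8%, and BA1 and BA2 at 13.9% and 11.3%.

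Summed per library, CD8 T cells of CSA3 and CSA4 differed from those of BA1 and BA2 in 537 of 6260 genes tested (8.58%), 150 higher and 387 lower in CSA (edgeR's quasi-likelihood test, Benjamini-Hochberg adjusted p under 0.05). Where a log2 fold change of at least 1.3 was asked as well, 6.74% were called. Without cells with foreign RNA 451 genes were called, without CSA4 210, without CSA3 275, and DESeq2 called 181. Among the lower genes were immediate-early genes, which encode transcription factors and feedback regulators that are transcribed within minutes of receptor or stress signals. Of the 30 genes tested from a list of 31 immediate-early and stress genes, 26 were lower in CSA and 0 higher, against 6.18% of all genes tested that were lower and 2.40% that were higher. The list's median log2 fold change was -2.23 beside -0.01 for all genes. Without the 13 cells with foreign RNA 25 members were lower. In cells with Xist UMIs only (7 in CSA3 and 26 in CSA4) 25 were lower. DESeq2 called 22 lower. Of the 26, Atf3 rested on 1 BA cell that held 89.9% of its UMIs. It was not among the genes tested without the cells with foreign RNA. CD8 T cells had a median of 3.57% mitochondrial UMIs in CSA3, 3.45% in CSA4, 4.20% in BA1 and 5.34% in BA2. With at most 5% allowed, 16 CD8 T cells of BA2 were left, and 402 genes were called, 98 higher and 304 lower in CSA. The part of mitochondrial load in the change of this list, or of the chaperone genes below, was not tested.

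The NR4A nuclear receptors, which lymphocytes switch on after antigen receptor and other signals, gave wide gaps that rested on many cells. Nr4a1 was at 0 in CSA1, 134 in CSA2, 0 in CSA3, 7.73 in CSA4, 383 in BA1 and 383 in BA2 CPM (log2 fold change -5.95, SE 0.47, adjusted p = 5.5e-17). Nr4a2 was at 0 in CSA1, 83.7 in CSA2, 0 in CSA3, 11.6 in CSA4, 589 in BA1 and 430.2 in BA2 (log2 fold change -5.80, SE 0.43, adjusted p = 2.4e-18). Nr4a3 was at 0 in CSA1, 0 in CSA2, 0 in CSA3, 7.73 in CSA4, 641 in BA1 and 206 in BA2 (log2 fold change -6.05, SE 0.51, adjusted p = 1.3e-15). In CSA3 the 3 genes had no UMI in 25 cells, while in BA they were found in 48, 51 and 55 of 67 cells, and no single cell gave over 11.9% of the BA UMIs. NK and B cells held a like gap between CSA3 and CSA4 and the BA libraries. Nr4a1 in NK cells was at 338 in CSA1, 196 in CSA2, 30.0 in CSA3, 20.2 in CSA4, 722 in BA1 and 708 in BA2 CPM, and in B cells at 312 in CSA1, 579 in CSA2, 15.9 in CSA3, 25.1 in CSA4, 612 in BA1 and 749 in BA2. In both types CSA1 and CSA2 lay between, well above CSA3 and CSA4.

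The AP-1 gene Fos was at 0 in CSA1, 251 in CSA2, 5.77 in CSA3, 25.1 in CSA4, 294 in BA1 and 658 in BA2 CPM (log2 fold change -4.57, SE 0.40, adjusted p = 5.0e-15) and its partner Junb at 641 in CSA1, 2428 in CSA2, 306 in CSA3, 404 in CSA4, 1714 in BA1 and 1596 in BA2 (log2 fold change -2.15, SE 0.21, adjusted p = 6.1e-13). CSA3 and CSA4 lay below both BA libraries in both genes, but CSA2 lay near them, and its Junb was the highest of all 6. Jun was at 128 in CSA1, 218 in CSA2, 17.3 in CSA3, 44.4 in CSA4, 88.7 in BA1 and 265 in BA2 CPM (log2 fold change -2.31, adjusted p = 4.3e-05) and Dusp1, a phosphatase that ends MAP kinase signals, at 0 in CSA1, 117 in CSA2, 11.5 in CSA3, 30.9 in CSA4, 209.7 in BA1 and 143 in BA2 (log2 fold change -2.75, adjusted p = 1.4e-06). Jun in CSA1 and CSA2 was above BA1. Rgs2, a regulator of G protein signals, was also lower in CSA, with 7 UMIs against 136.

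**Figure D3:**
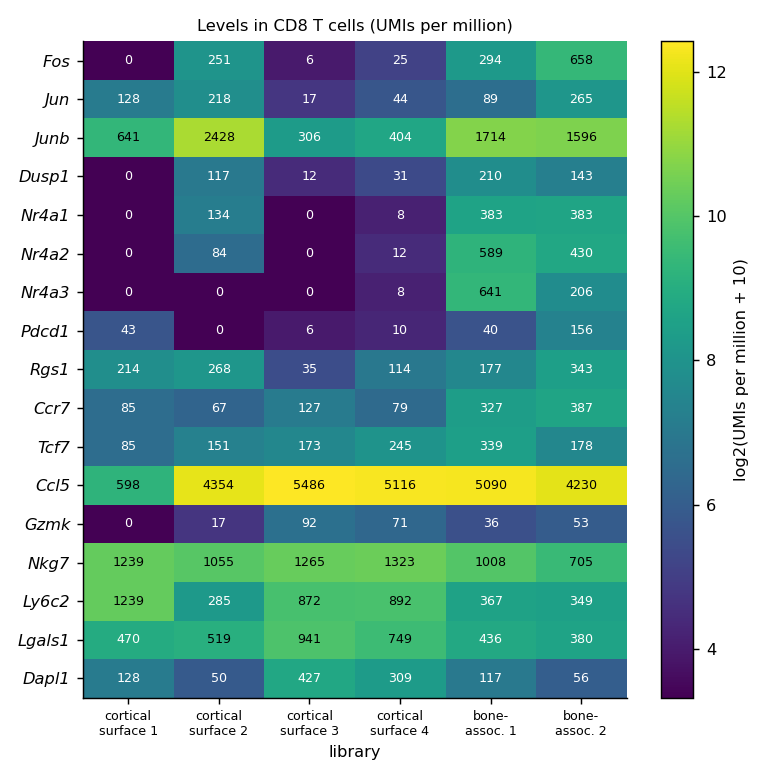
Levels of 17 genes in CD8 T cells of the 6 libraries, as CPM (numbers) and log2 of that value plus 10 (colour). Nr4a1, Nr4a2 and Nr4a3 were under 12 in CSA3 and CSA4 and at 206 or more in BA1 and BA2, while CSA1 and CSA2 rest on 3 and 5 cells.

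Summed over the immediate-early list, CSA3 and CSA4 were the lowest libraries in each of the 4 lymphocyte types measured. Here CD8 T cells held 4827 in CSA1, 10382 in CSA2, 3176 in CSA3, 3123 in CSA4, 13076 in BA1 and 11812 in BA2 CPM, so that CSA1, with 3 cells, was nearer to CSA3 and CSA4, and CSA2 nearer to BA. B cells, more numerous, held 11473 in CSA1, 14319.8 in CSA2, 5818 in CSA3, 5009 in CSA4, 11272 in BA1 and 15918 in BA2, so that CSA1 and CSA2 lay within the range of the BA libraries and CSA3 and CSA4 below it. CD4 T cells held 10836 in CSA1, 17575 in CSA2, 5256 in CSA3, 4121 in CSA4, 14423 in BA1 and 13792 in BA2. When only CSA1 and CSA2 were set against BA, 7 of the 30 genes were lower and 0 higher, on 8 cells. Over all genes tested in that fit, 65 of 7840 were lower and 6 higher. The list's median log2 fold change there was -1.23 beside -0.26 for all genes. The change between CSA and BA differed between CD8 and CD4 T cells for 6 of 6604 genes tested (0.0909%), 2 higher (0.0303%) and 4 lower (0.0606%), and for 0.0757% with a log2 difference of at least 1.3 as well. None of the 26 genes was among the 6, and 0 genes were called by DESeq2, where 41 had an unadjusted p under 0.05, or without CSA4. Library set, sex and preparation cannot be told apart here.

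**Figure D4:**
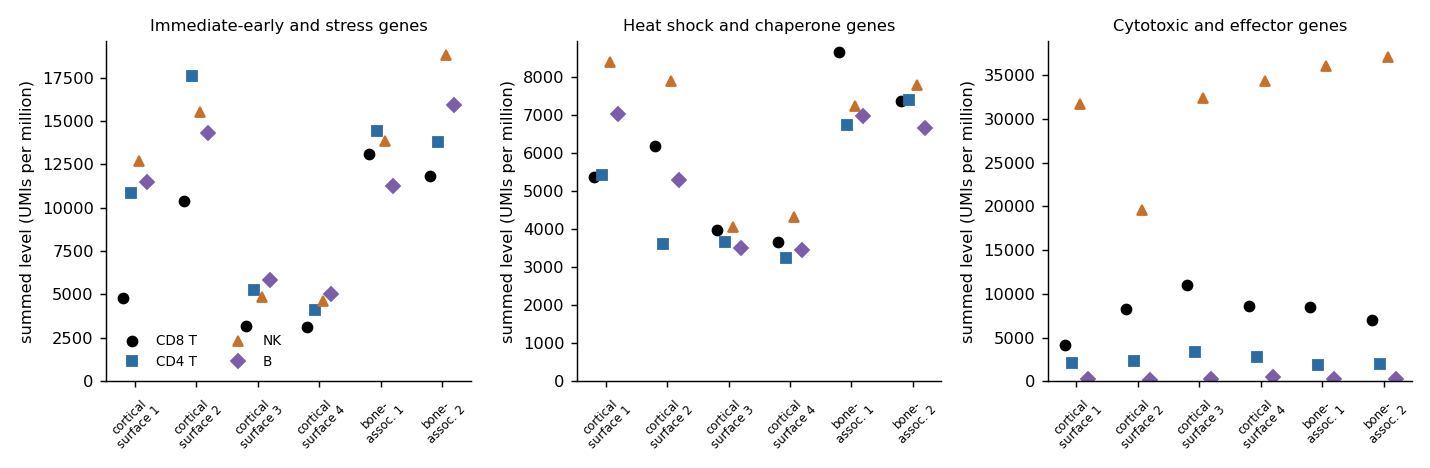
Summed levels of 3 gene lists (CPM) in CD8 T, CD4 T, NK and B cells of each library. In CSA3 and CSA4 all 4 cell types sat between 3123 and 5818 for immediate-early genes, while the other libraries were higher except for the 3 CD8 T cells of CSA1 at 4827.

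Many promoters of these genes hold a short element. The genes came from chosen lists, and list members that were not called were not compared, so the share below is a description only. TGACG, the core of the cyclic AMP response element, was searched on both strands (as TGACG or CGTCA) in the 250 bases before each transcription start listed by RefSeq (GRCm38.p6). Of the 29 genes made up of the 26 lower list members and Nr4a1, Nr4a2 and Nr4a3, 25 had an entry and 15 of these held it, against 19.8% of the 27025 genes with an entry. The 150 bases before the first listed start of Nr4a1 (chr15:101266696-101266845, plus strand), Nr4a2 (chr2:57124004-57124153, minus strand), Nr4a3 (chr4:48045155-48045304, plus strand) and Fos (chr12:85473740-85473889, plus strand) are shown because of the wide gaps of these genes, 5′ to 3′ with the element in capitals. A match is a description of the letters and not evidence of binding.
Nr4a1: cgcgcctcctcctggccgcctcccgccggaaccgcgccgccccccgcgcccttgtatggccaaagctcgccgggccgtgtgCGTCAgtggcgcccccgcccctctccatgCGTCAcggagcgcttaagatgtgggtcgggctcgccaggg
Nr4a2: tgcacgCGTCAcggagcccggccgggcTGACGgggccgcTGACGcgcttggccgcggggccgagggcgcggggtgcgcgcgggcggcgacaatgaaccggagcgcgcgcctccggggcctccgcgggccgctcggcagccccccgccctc
Nr4a3: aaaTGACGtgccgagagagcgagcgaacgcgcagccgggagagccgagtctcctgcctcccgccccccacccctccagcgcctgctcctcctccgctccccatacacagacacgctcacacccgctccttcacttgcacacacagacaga
Fos: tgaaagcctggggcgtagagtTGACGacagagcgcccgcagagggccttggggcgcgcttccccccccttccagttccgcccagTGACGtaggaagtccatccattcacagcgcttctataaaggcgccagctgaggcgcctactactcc
The element stood 2 times in the Nr4a1 stretch, 3 times in that of Nr4a2, 1 time in that of Nr4a3 and 2 times in that of Fos.

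Chaperone genes moved the same way. Of 12 heat shock and chaperone genes tested, 9 were lower in CSA and 0 higher, against 6.18% and 2.40% of all genes tested (median log2 fold change -1.34), among them Hsp90aa1 (log2 fold change -1.47, SE 0.23, adjusted p = 2.4e-06) and Hspa8 (log2 fold change -0.90, SE 0.19, adjusted p = 2.9e-04). The inducible Hspa1a was lower too (-2.83), but 60.0% of its BA UMIs came from 1 cell, and with CSA1 and CSA2 alone on the CSA side its direction turned (0.16). Without the cells with foreign RNA 7 of these 9 were lower, Dnajb1 did not pass (adjusted p = 0.105) and Hspa1a was not among the genes tested. DESeq2 and the cells with Xist UMIs only each called 6 lower, and with CSA1 and CSA2 alone on the CSA side 2 were lower and 1 higher.

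Several genes of activation and restraint were lower in CSA3 and CSA4 as well, and most other lymphocytes held a like gap. For summed inhibitory receptor genes, the BA mean over that of CSA3 and CSA4 was 2.63 in CD8 T cells. It was 5.72 in CD4 T cells and 4.86 in B cells, but 0.701 in NK cells. For summed tissue residence genes it was 2.74 in CD8 T, 4.41 in CD4 T, 2.17 in NK and 4.66 in B cells. Of 7 inhibitory receptor and exhaustion genes tested, 3 were lower and 0 higher: Pdcd1 (PD-1), Ctla4 and the transcription factor Nfil3. Over all genes tested 6.18% were lower and 2.40% higher. DESeq2 called 2 lower, and 0 were called with CSA1 and CSA2 alone on the CSA side. The list's median log2 fold change was -1.56, and -2.61 with CSA1 and CSA2 alone, beside -0.26 for all genes in that fit. Pdcd1 was at 42.7 in CSA1, 0 in CSA2, 5.77 in CSA3, 9.66 in CSA4, 40.3 in BA1 and 156 in BA2 CPM (log2 fold change -3.48, SE 0.60, adjusted p = 1.1e-05) and Ctla4 at 0 in CSA1, 33.5 in CSA2, 0 in CSA3, 3.86 in CSA4, 117 in BA1 and 99.8 in BA2 (log2 fold change -5.02, SE 0.68, adjusted p = 3.3e-08). The single Pdcd1 UMI of CSA1 put it level with BA1. The 2 Ctla4 UMIs of CSA4 came from 1 cell, and the ratio of BA to CSA was 36.3 with a counting interval of 9.62 to 306. Ctla4 is also on the list of CD4 T cell markers, of which 2 could be tested and both were lower, the other being Ikzf2, a transcription factor of regulatory T cells (log2 fold change -1.47, SE 0.41, adjusted p = 0.0134, and adjusted p = 0.197 by DESeq2). These markers summed to 342 in CSA1, 251 in CSA2, 24.0 in CSA3, 76.8 in CSA4, 331 in BA1 and 281 in BA2 in each 1000000 UMIs, hemoglobin included, and their part in the difference was not tested. Icos, a co-stimulatory receptor, was lower (log2 fold change -2.39, adjusted p = 6.9e-05), as was Cd28 by edgeR (-1.33, adjusted p = 0.00197) but not by DESeq2 (adjusted p = 0.0539). Tox, a regulator of exhausted cells, was at -0.89 with an adjusted p = 0.238 and did not pass. Of the 12 tissue residence genes tested 7 were lower and 1 higher, and DESeq2 called 5 lower and 0 higher, but Nr4a1, Nr4a2 and Nr4a3 are on that list, as are Rgs1 (log2 fold change -1.60, SE 0.34, adjusted p = 4.6e-04) and Rgs2. Itga1 was the one that rose (log2 fold change 1.95, SE 0.51, adjusted p = 0.00616), with 55 UMIs in CSA3 and CSA4 against 12, but it did not pass in cells with Xist UMIs only (adjusted p = 0.62) or by DESeq2 (adjusted p = 0.181). Cd69, Cxcr6 and Xcl1, often used to mark resident cells, did not pass, at log2 fold changes of -0.58, 0.46 and 0.04.

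Some genes of memory cells and of the inducible proteasome rose in CSA3 and CSA4. Of 17 memory and activation genes tested, 6 were higher (Ly6c2, S100a4, S100a6, S100a10, Lgals1 and Lgals3) and 2 lower (Icos and Irf4), against 2.40% and 6.18% of all genes tested. In cells with Xist UMIs only, 2 were higher (Ly6c2 and Lgals1) and 1 lower. With CSA1 and CSA2 alone on the CSA side 0 were higher and 0 lower. The list's median log2 fold change was then -0.21, close to the -0.26 of all genes in that fit. Ly6c2, a surface protein of memory CD8 T cells, was at 1239 in CSA1, 285 in CSA2, 872 in CSA3, 892 in CSA4, 367 in BA1 and 349 in BA2 CPM (log2 fold change 1.35, SE 0.23, adjusted p = 6.9e-06). The 29 UMIs of CSA1 came from 1 of its 3 cells. Lgals1 was at 469.9 in CSA1, 519 in CSA2, 941 in CSA3, 749 in CSA4, 436 in BA1 and 380.3 in BA2 (log2 fold change 1.09, SE 0.23, adjusted p = 3.3e-04), and in CSA1 and CSA2 it was nearer to BA. With these alone on the CSA side the direction turned for Lgals1 (-0.21, close to the median of all genes) and Lgals3 (-1.44). The inducible proteasome subunits Psmb8, Psmb9 and Psmb10, which cut peptides for MHC class I, were all higher (log2 fold changes 0.96, 1.50 and 1.06, adjusted p = 0.00301, 4.6e-04 and 0.0363), though Psmb10 did not pass by DESeq2 (adjusted p = 0.29). These subunits and the 6 higher memory genes were also higher in Ccl5-positive cells in each of CSA3, CSA4, BA1 and BA2. The Ccl5-positive share averaged 64.6% in CSA3 and CSA4 and 52.7% in BA, and its part in these rises was not tested. Of 23 interferon-induced genes tested 3 rose and 0 fell, and of 12 MHC class I pathway genes 1 rose (Psmb10) and 9 had a negative log2 fold change, with a median of -0.10. Bcl2, which protects resting T cells from death, was higher (log2 fold change 1.43, SE 0.27, adjusted p = 5.7e-05), and its relative Mcl1 was lower by edgeR (log2 fold change -0.87, adjusted p = 0.0263) but not by DESeq2 (adjusted p = 0.125). Of 17 apoptosis and survival genes 1 rose and 4 fell, and DESeq2 called 1 higher and 2 lower. Of 18 cytokine receptor genes 1 rose and 5 fell (Il4ra, Il21r, Ifngr1, Ifngr2 and Tnfrsf1b), at a median log2 fold change of -0.48 beside -0.01 for all genes, and DESeq2 called 2 lower. Of 8 cell cycle genes 2 fell (Pcna and Tubb5), at a median of -0.47, and DESeq2 called 1 lower. Of 18 T cell receptor and signalling genes 2 rose and 2 fell (median -0.03), and of 13 chemokine receptor and adhesion genes 2 fell (median -0.02). These stand again beside 2.40% of all genes tested that were higher and 6.18% that were lower. DESeq2 called 1 gene of the first list higher and 0 lower, and 0 of the second. In cells with Xist UMIs only, 0 of the first were higher and 1 lower, and 0 of the second were called.

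Most naive and cytotoxic genes did not pass. Of 16 naive genes, 3 were lower (Ccr7, Satb1 and Myb) and 1 higher (Dapl1), against 6.18% and 2.40% of all genes tested, with a median log2 fold change of -0.25. DESeq2 and the cells with Xist UMIs only each called Ccr7 lower and Dapl1 higher and no other gene of the list. With CSA1 and CSA2 alone on the CSA side 5 were lower and 0 higher, at a median of -1.82 beside -0.26 for all genes. Ccr7 was at 85.4 in CSA1, 67.0 in CSA2, 127 in CSA3, 79.2 in CSA4, 327 in BA1 and 387 in BA2 CPM (log2 fold change -1.84, SE 0.31, adjusted p = 6.5e-06), the lowest BA library above the highest CSA library. B cells held a like gap of CSA3 and CSA4 to BA in Ccr7. They were at 448 in CSA1, 1391 in CSA2, 170.5 in CSA3, 172.9 in CSA4, 543 in BA1 and 823 in BA2. In CD4 T cells Ccr7 overlapped, at 95.4 in CSA3, 120 in CSA4, 101 in BA1 and 304 in BA2. Dapl1, a gene of naive and early memory CD8 T cells, went the other way in CD8 T cells, at 128 in CSA1, 50.2 in CSA2, 427 in CSA3, 309 in CSA4, 117 in BA1 and 56.1 in BA2 (log2 fold change 2.14, SE 0.32, adjusted p = 4.6e-07), but with CSA1 and CSA2 alone on the CSA side its direction turned. Other naive genes did not pass: Lef1 was at -0.54, Tcf7 at -0.20, Klf2 at 0.04, S1pr1 at -0.62 and Il7r at 0.24 on the log2 scale. Of 20 cytotoxic and effector genes, against the same shares of all genes, 3 rose by small amounts, Nkg7 (0.65), Ctsw (0.86) and Klrd1 (0.86), and the interferon gamma gene Ifng fell (log2 fold change -1.24, SE 0.40, adjusted p = 0.04). None of these 4 passed without the cells with foreign RNA or by DESeq2, while Id2, a regulator of effector cells, was higher without those cells (adjusted p = 3.5e-04) and not with them (adjusted p = 0.0741). Ifng was at 85.4 in CSA1, 117 in CSA2, 63.5 in CSA3, 61.8 in CSA4, 250 in BA1 and 65.5 in BA2 CPM. Its fall thus rested on BA1, with BA2 level with CSA3 and CSA4. The list's median log2 fold change was 0.08. With CSA1 and CSA2 alone on the CSA side 2 were lower and 0 higher, at a median of -0.78, and the direction of Nkg7 turned (-0.12). Ccl5 (0.24), Gzmb (-0.33), Gzmk (0.84), Prf1 (0.03), Ccl4 (0.50), Cxcr3 (0.84) and Cd44 (0.30) did not pass.

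Outside the lists, the largest falls with at least 20 UMIs and no overlap between groups (which 50.8% of all genes tested showed, in either direction) included Plk3, a stress-responsive kinase, with 26 UMIs in 24 BA cells and 0 in CSA (at least 10.3-fold lower, counting 3 UMIs over both CSA libraries as the floor). Tmem176b, which was not among the genes tested without the cells with foreign RNA, had 39 BA UMIs in 8 cells and Ramp3, a co-receptor for peptide hormones, 27 in 12 cells, both with 0 in CSA (at least 15.5-fold and 10.7-fold lower). Others of this rank rested on few cells: 84.0% of the UMIs of Tpm2 and 75.7% of those of Igfbp5 came from 1 BA cell each. The largest rises were of low genes, Ttc32 (22 UMIs against 1), Trim14 (21 against 1), the mitochondrial iron importer Slc25a37 (40 against 3) and Zc3h6 (22 against 2). Slc25a37, also an erythroid gene, did not pass without the cells with foreign RNA (adjusted p = 0.325). Genes of other cells or of sex among the 537 included 6 red blood cell genes and 3 Y-linked genes, higher in CSA, and Mgp, Tagln, Ttr, Cst3 and Xist, lower in CSA. Their part in the other differences was not tested, other than by leaving those cells out.

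Set against CD4 T cells of the same libraries, CD8 T cells held more UMIs of cytotoxic genes. With library as a block, 279 of 5722 genes differed (4.88%), 134 higher in CD8 (2.34%) and 145 lower (2.53%), and 2.29% with a log2 fold change of at least 1.3 as well. Without BA2 133 genes were called, without BA1 149, with DESeq2 56 and without the block 10. UMIs in this and the next comparison are summed over CSA3, CSA4, BA1 and BA2. Of 21 cytotoxic and effector genes tested 14 were higher and 1, Tnf, lower, with a median log2 fold change of 2.16 beside 0.01 for all genes. Ccl5 was at 598 in CSA1, 4354 in CSA2, 5486 in CSA3, 5116 in CSA4, 5089.9 in BA1 and 4230.2 in BA2 CPM in CD8 T cells and 285 in CSA1, 733 in CSA2, 1490.1 in CSA3, 1623 in CSA4, 896 in BA1 and 832 in BA2 in CD4 T cells (log2 fold change 2.16, SE 0.11, adjusted p = 1.8e-12). NK receptor genes were also higher: Klrd1 had 310 UMIs against 23 (log2 fold change 3.57, SE 0.28, adjusted p = 8.8e-09), and Klre1 had 76 against 1, a ratio of 75.3 with a counting interval of 13.1 to 3013. Both were higher in 4 of 4 libraries. Gzmk (log2 fold change 2.68, SE 0.47, adjusted p = 8.1e-04), Xcl1 (log2 fold change 2.95, SE 0.27, adjusted p = 9.0e-08), Ccl4 (log2 fold change 4.09, SE 0.36, adjusted p = 5.1e-08) and Eomes, a transcription factor of cytotoxic and memory cells (log2 fold change 3.66, SE 0.59, adjusted p = 3.0e-04), were higher in 4 of 4 libraries. Gzmb and Prf1 were higher by edgeR (adjusted p = 0.00175 and 0.00281) but not by DESeq2 (adjusted p = 0.235 and 0.112). Bend4 had 46 UMIs in CD8 and 0 in CD4 T cells, at least 15.2-fold higher against a floor of 3 UMIs over the group.

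CD4 T cells, in turn, held more of the helper genes. Of 6 tested markers of CD4 T cells outside the rule, 5 were lower in CD8 T cells, among them Cd40lg, the ligand by which helper cells reach B cells (38 UMIs against 361, log2 fold change -3.18, SE 0.25, adjusted p = 1.1e-08), and Tnfrsf4 (5 against 231). Maf (log2 fold change -2.88, SE 0.25, adjusted p = 4.9e-08), Icos (log2 fold change -2.21, SE 0.20, adjusted p = 8.7e-08), Tnfsf11 (log2 fold change -4.02, SE 0.49, adjusted p = 9.2e-06) and Ramp3 (log2 fold change -2.92, SE 0.31, adjusted p = 7.1e-07) were lower in 4 of 4 libraries. Of 27 immediate-early and stress genes 4 were lower in CD8 T cells (Junb, Dusp5, Gadd45b and Pim1) and 2 higher. These were Dusp2 and Fos (log2 fold change 0.82, SE 0.23, adjusted p = 0.0324), which was higher in 2 of 4 libraries and did not pass by DESeq2 (adjusted p = 1.00), and whose direction turned in cells with both CD8 chains (-0.16). Il17a had 2001 UMIs in CD4 T cells, of which 949 were in 13 cells of BA1 and 1051 in 10 cells of BA2, and 42 in CD8 T cells. It was lower in CD8 T cells by edgeR (adjusted p = 5.1e-08) and not by DESeq2 (adjusted p = 1.00). Few naive genes differed: of 15 tested 1 was higher (Dapl1, log2 fold change 1.47, SE 0.27, adjusted p = 0.00117) and 1 lower (Il7r, log2 fold change -0.83, SE 0.15, adjusted p = 8.5e-04), and Ccr7, Lef1 and Tcf7 did not pass. Pdcd1 was higher by edgeR (adjusted p = 0.0452) in 3 of 4 libraries, and Cxcr6 lower (adjusted p = 0.0091) in 3 of 4.

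**Figure D5:**
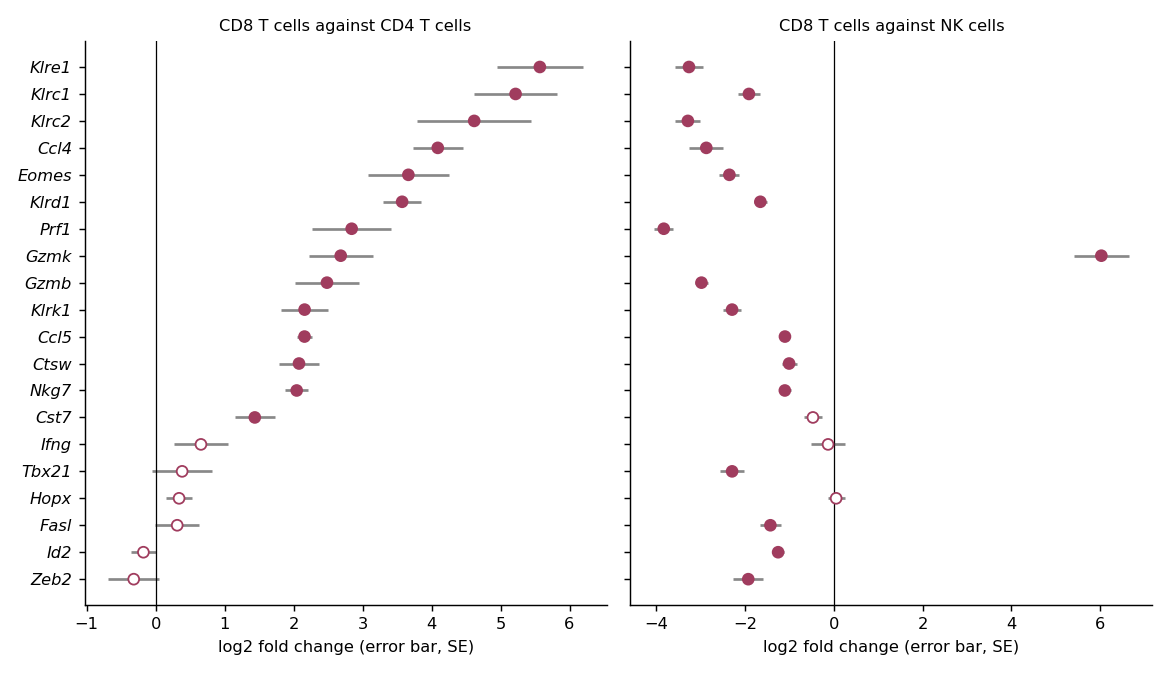
Log2 fold changes (error bars, SE) of cytotoxic and effector genes between CD8 and CD4 T cells (left) and between CD8 T and NK cells (right), from 4 libraries each. Filled points passed an adjusted p under 0.05. Most genes sat above CD4 T cells and below NK cells, and Gzmk stood out on the right at 6.03.

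Against NK cells of the same libraries the order was turned. Here 817 of 5952 genes differed (13.7%), 422 higher in CD8 T cells (7.09%) and 395 lower (6.64%), and 6.96% with a log2 fold change of at least 1.3 as well. Of 24 cytotoxic and effector genes tested 20 were lower in CD8 T cells and 1 higher, with a median log2 fold change of -2.05. Prf1 (log2 fold change -3.83, SE 0.22, adjusted p = 3.8e-10) and Gzmb (log2 fold change -2.98, SE 0.15, adjusted p = 9.4e-11) were lower in 4 of 4 libraries, and Gzma, with 514 UMIs in CD8 T cells and 10631 in NK cells, was too (log2 fold change -4.07, SE 0.25, adjusted p = 1.5e-09). Ccl5 and Nkg7 differed less (-1.10 and -1.11). The gene that was higher was Gzmk, with 79 UMIs in CD8 T cells and 1 in NK cells, a ratio of 96.2 with a counting interval of 16.8 to 3847. Gzmk was thus above both CD4 T and NK cells in all 4 libraries.

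Naive genes were the other side of that contrast. Of 16 tested 12 were higher in CD8 T than in NK cells and 0 lower, among them Ccr7 (log2 fold change 4.94, SE 0.39, adjusted p = 2.1e-08), Lef1 (log2 fold change 3.13, SE 0.22, adjusted p = 5.0e-09) and Il7r (log2 fold change 3.38, SE 0.34, adjusted p = 5.6e-07). Dapl1 had 281 UMIs in CD8 T cells and 0 in NK cells (at least 114-fold higher), and Gm8369 had 256 and 0 (at least 104-fold). Of 18 T cell receptor and signalling genes 14 were higher, and Themis, a thymocyte selection gene, and the receptors Cd5 and Cd6 were at 0 UMIs in NK cells. Lower genes outside the marker list included Irf8 (17 UMIs against 1494, log2 fold change -5.89, SE 0.38, adjusted p = 2.5e-09), Klrb1b (1 against 227) and Styk1 (1 against 149). Pdcd1 was higher by edgeR (log2 fold change 3.05, SE 0.66, adjusted p = 0.00322), in 3 of 4 libraries, and not by DESeq2 (adjusted p = 0.126).

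T cell receptor variable genes were sparse. UMIs of a Trav gene were found in 40 of the 168 cells (23.8%), spread over 26 genes, and of a Trbv gene in 32 cells, spread over 13. The most frequent were Trav16 and Trbv3, each in 6 cells, and the 6 Trbv3 cells came from CSA1, CSA4 and BA2. No UMI of a Trdv gene was seen, in cells that the rule had already required to lack Trdc. No single variable gene thus dominated the cells in which one was seen.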

How the data were processed

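Single cells of 6 libraries were measured on the 10x platform. The authors made the deposited values with Cell Ranger (version 3 by the submitters' processing notes, 6.1.2 by the file headers) on mm10, as raw UMI counts per gene and barcode. From these counts the CD8 T cells were gated as described, and CD4 T cells (Cd4 in place of Cd8a or Cd8b1), NK cells (no CD3 gene, at least 2 of Ncr1, Klrb1c and Klra8) and B cells (Cd79a with another B cell marker and no CD3 gene) served for comparison. Counts were summed per library and type, for libraries with at least 10 cells, and tested with edgeR 4.0.16 (TMM, quasi-likelihood) over genes detected in over 10% of cells of either group, at a Benjamini-Hochberg adjusted p under 0.05. Standard errors are the log2 fold change over the root of F. Type comparisons had library as a block. In the alternative with Xist UMIs only, libraries needed at least 5 cells. It rested on 7 CD8 T cells in CSA3, 26 in CSA4, 24 in BA1 and 35 in BA2. Levels (CPM) are UMIs scaled to 1000000 UMIs other than hemoglobin. DESeq2 1.42.0, other filters, gates and library sets were alternatives, and doublets were scored with Scrublet (2 members scored as doublets were kept, and left out in an alternative). The tests were checked on simulated counts. Libraries were separate runs on pooled mice, and the p-values measure the spread between these libraries. No column was left unmapped.

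Named genes were a list of always described genes, the members of the gene lists that passed, and the 10 largest changes in each direction with at least 20 UMIs and no overlap, of which a selection is printed. Some planned results are not reported here. The members and the gene lists were chosen with earlier results of these data known. Replicate numbers 1 and 2 occur in both groups, and deviations of like-numbered libraries correlated at 0.0370 and 0.0546 across genes. The deviations of BA1 and BA2 are mirror images of each other, and CSA1 and CSA2 rest on 3 and 5 cells. These correlations therefore cannot show or exclude a pairing, and the libraries were treated as unpaired. Gene names were those of the files, and sequences were taken from RefSeq.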

Additional observations from a re-analysis of the deposited data

Results flagged for a closer look

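The change between CSA and BA differed between CD8 and CD4 T cells for 6 of 6604 genes (interaction of cell type and preparation, edgeR, adjusted p under 0.05, 0.0909%), and for 0 by DESeq2, where 41 had an unadjusted p under 0.05, against 358 by edgeR. S100a8 (log2 difference -12.01) and S100a9 (-8.85) are neutrophil genes, and 4221 and 4341 of their UMIs lay in the CD4 T cells of CSA4, against 1 and 7 in its CD8 T cells. Serpinb1a (-6.83) and Anxa1 (-4.21) followed them, with 24 and 96 UMIs there. Lgals1 (1.27) had 163 UMIs in the CD8 T cells of CSA3, 388 in CSA4, 108 in BA1 and 122 in BA2, and 90, 160, 192 and 286 in the CD4 T cells of the same libraries. Tnfsf8 (4.31), the CD30 ligand, had 44 and 116 UMIs in the CD4 T cells of BA1 and BA2 and at most 15 in any other sum. Without cells with foreign RNA 4 genes were called, and without CSA4 0 were. The part of neutrophil RNA in these values was not tested.

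Over the 4 CSA libraries, 16 measures of the CD8 T cells were examined for 1 library far from the others, of which chance gives about 1 in 20. The summed level of cytokine receptor genes had 1 such library (gap over range 0.834): it was 1025 in CSA1, 1808 in CSA2, 1155 in CSA3, 1060.3 in CSA4, 1658 in BA1 and 1733 in BA2 CPM (UMIs scaled to 1000000), so CSA2, with 5 cells, was the library apart.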

How the results depend on the processing

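The count of genes that differed between CSA and BA (537) was 181 with DESeq2, 300 in cells with both Cd8a and Cd8b1, 147 in cells thinned to 1500 UMIs and 71 with only CSA1 and CSA2 on the CSA side. It was 231 in cells with Xist UMIs only, an alternative that, like those without foreign RNA and with all 6 libraries, was added after seeing the data. Leaving out 1 library in turn gave 210 (without CSA4) to 724 (without BA2), and 275 without CSA3, with the lone library of an arm assumed to vary like the others. The CD8 against CD4 count (279) was 56 with DESeq2, 184 at up to 5% mitochondrial UMIs, 10 with no block for library, 131 with the fold limit, and 133 (without BA2) to 243 with 1 library left out, with 149 without BA1 and 185 without CSA3. The NK count (817) was 440 with DESeq2, 414 with the fold limit and 547 to 747 with 1 library left out. The interaction count (6) was 0 with DESeq2 (41 at an unadjusted p under 0.05), 14 with no gene filter, and 0 (without CSA4) to 24 (without BA2), with 10 without CSA3 and 11 without BA1. The difference between CSA and BA in the share among CD3 cells (4.97 percentage points) was -1.07 without BA2, 11.02 without BA1, 8.82 without CSA1, 1.82 without CSA4 and 7.504 with the thinned gate. That among kept barcodes (-0.71) kept its direction but was -0.098 with both CD8 chains, -0.067 with the thinned gate, -0.033 without BA1, -0.33 without CSA1 or CSA2, -1.21 without CSA4 and -1.38 without BA2. That in the Ccl5-positive share (11.9) was 2.98 at up to 5% mitochondrial UMIs, 7.38 with both CD8 chains, 7.30 without CSA4, 5.58 without BA1 and 18.1 without BA2. Other alternatives kept these counts and differences within 1.5 times.

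With the replicate block, fitted on all 6 libraries, 41 genes were called between CSA and BA. The numbers are not shown to pair the libraries, and the fit adds the 8 cells of CSA1 and CSA2. The direction turned for Dapl1 (-0.41), Hist1h4d (-4.75), Hspa1a (0.44), Ier5 (0.21), Lgals1 (-0.063), Lgals3 (-1.38), Slc25a37 (-3.27) and Zc3h6 (-3.09) under the replicate block, and for Dapl1 (-0.68), Hspa1a (0.16), Lgals1 (-0.21), Lgals3 (-1.44) and Nkg7 (-0.12) with CSA1 and CSA2 alone. The median of all genes moved to -0.42 and -0.26 in these fits. Fos was at -0.16 against CD4 T cells in cells with both CD8 chains. The causes were not tested. Depth limits the rare genes: most named low genes rest on fewer than 100 UMIs, and CSA1 and CSA2 on 3 and 5 cells.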

Other observations

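A few genes were carried by a handful of CD8 T cells. Gzma, the granzyme most used by NK cells, had 514 UMIs in 9 of the 168 cells, with 225 in 3 cells of CSA3. Itgae, a residence integrin, had 17 UMIs in 12 cells. Mki67, a gene of dividing cells, had 34 UMIs in 7 cells, with none in CSA1, CSA2 and CSA3. Il17a, the interleukin 17 gene, had 42 UMIs in 2 cells of BA2 and 1 in CSA2, and Trdc was at 0 in these cells by the rule. These counts are a description of how few cells carried the UMIs.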
